A study of Mus musculus with 10 samples.

Results

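The genes described here are 8 transcription factors and repressors through which the circadian clock acts on its output genes, namely Dbp, Tef, Hlf, Nfil3, Bhlhe40, Bhlhe41, Ciart and Rora. They were taken by gene symbol from the 29564 genes listed, and all 8 were among the 13303 genes tested. Polyadenylated RNA of the left ventricle was sequenced from 10 male wild-type C57BL6 mice (C57BL/6J in the study's methods), 5 labelled as non-failing controls (numbered TT-583 up to TT-587) and 5 of a mouse model of HFpEF, heart failure in which the ejection fraction is preserved (HFD+mTAC, numbered TT-588 up to TT-592). HFD+mTAC mice had moderate transverse aortic constriction at 11 weeks of age and a diet with 60% of calories from fat from then on, whereas control mice had no constriction and a diet with 10% of calories from fat. Both groups were 11 weeks old at the start, and the study's induction period was 16 weeks. Both groups are labelled as treated with vehicle, a mixture of DMSO, PEG-300 and water. For its HFpEF models, the study's methods give 10 mL/kg every day over 6 to 9 weeks. The study's treatment of HFD+mTAC mice lasted 6 weeks, and it also profiled HFpEF hearts after a single dose. Which of these applies to the HFD+mTAC mice here is not stated. The regimen of the controls is not given in the sources used here. Since constriction and diet were given together, their parts in any difference cannot be told apart. Mice were kept in 12 h of light and 12 h of dark, and the time of day at which each heart was collected is not given in the sources used here.

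As background, the circadian clock is a feedback loop in which the activators Clock (or its relative Npas2) and Arntl bind E-box elements and switch on the genes of their own repressors, the period and cryptochrome proteins. The same activators switch on Dbp, a factor of the PAR bZIP family, which together with its relatives Tef and Hlf activates genes through a second element, the D-box. Nfil3 (E4bp4) binds the D-box as a repressor and peaks at the opposite time of day. Bhlhe40 (Dec1) and Bhlhe41 (Dec2) bind the E-box as repressors, Ciart (Chrono) represses the activator pair itself, and Rora activates genes through an element of its own, at which the Rev-erb repressors Nr1d1 and Nr1d2 compete with it. Transcripts of most of these genes, Dbp above all, are known to cycle over the day in heart and liver.

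The elements were looked for in RefSeq promoters of GRCm38.p6 (250 bases before and 50 after each start), which hold 8 promoters for 7 of the 8 genes. The letters searched on both strands were CACGTG for the E-box, TTATGTAA or TTACGTAA for the D-box and TAGGTCA or TGGGTCA for the half-site of Rora. Of all 32851 promoters, 7.15% held the E-box, 1.06% the D-box and 6.45% the half-site, and 0.0883% held 3 or more E-boxes. Ciart had 3 E-boxes, at 116, 58 and 44 bases before its start. Its 160 bases upstream are shown because no other member searched had more than 1 in a promoter (minus strand, chr3:95882229-95882388, E-boxes in capitals).

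Ciart: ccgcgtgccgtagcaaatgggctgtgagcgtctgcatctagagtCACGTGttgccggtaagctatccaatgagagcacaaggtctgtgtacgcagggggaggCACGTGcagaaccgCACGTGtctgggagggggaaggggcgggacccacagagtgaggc

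The other matches are given with up to 8 bases on either side, the element in capitals. Bhlhe41 had an E-box 153 bases before its start (minus strand, chr6:145865560-145865580). Tef had one in each of its 2 promoters (plus strand), at chr15:81802538-81802559, which lies in an exon of the annotated transcript Tef-202, and at chr15:81811268-81811289, upstream of transcript Tef-201. Nfil3 had a Rora half-site on the opposite strand, 12 bases before its RefSeq start and inside the annotated first exon (minus strand, chr13:52981040-52981059). The windows of Dbp, Hlf and Rora held none of these letters. Bhlhe40 had no promoter entry and was not searched. Sequence outside the windows was not searched for any gene, so elements there would be missed.

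Bhlhe41: cgttccgCACGTGagctgggt
Tef, upstream promoter: tgtggctcCACGTGctgcagct
Tef, downstream promoter: tggcccagCACGTGtctacatc
Nfil3: ctcggaacTGACCTActaac

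Libraries held 34.2 to 53.7 M estimated counts, of which 12.7 to 21.1 M fell on nuclear protein-coding genes. Member genes had between 107 (Ciart, TT-583) and 3744 (Tef, TT-592) estimated counts in a mouse. Cardiomyocyte markers were abundant in every mouse, with a summed level of 18257 to 23195 TPM (a level scaled for transcript length and library size) in controls and 16080 to 19510 in HFD+mTAC mice. All 6 of these markers had a negative fitted fold change (median log2 fold change -0.21, 2 with an unadjusted p under 0.05, 0 called). The median was -0.26 without TT-583 and TT-584. The adipocyte markers Adipoq, Plin1, Cidec and Lep together reached at most 0.511 TPM. Of the brown adipocyte markers, Ucp1 was listed at 0, and Cidea was at 32.9 to 45.0 CPM in controls and 46.5 to 55.2 CPM in HFD+mTAC mice, with no overlap (log2 fold change 0.39, unadjusted p = 0.00302, edgeR adjusted p = 0.284, and 0.49 without TT-583 and TT-584). Of the tested markers of fibroblasts, endothelial, mural and immune cells 0 had an unadjusted p under 0.05, and Kcnj8, Adgre1 and Cd3e were not tested. Without TT-583 and TT-584, the fibroblast marker Lum (log2 fold change 0.42, edgeR unadjusted p = 0.0470) and the immune marker Csf1r (0.35, edgeR unadjusted p = 0.00979) passed. The other tested markers of these 4 cell types did not. Erythroid markers summed to 75.0 to 751.5 TPM in controls and 81.3 to 737.5 TPM in HFD+mTAC mice. Fewer cells of a type and less RNA per cell cannot be told apart in bulk tissue, and the part of the marker difference in the results below was not tested.

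The libraries of control mice TT-583 and TT-584 stood apart from the other 8, and this bears on most results below. Their mitochondrial share of counts was the lowest, at 43.8 and 44.0% against 46.4 to 52.7% in the other mice. In the effective transcript length that salmon estimates for each gene and mouse, both lay beyond the other 8 mice in 30.7% of genes, most often below them (29.4%). Over 1254 genes with a single annotated transcript, their median effective length was 3274 and 3272 bases against 3452 to 3869 in the others. In normalized CPM (counts scaled to library size, not to length), the pair lay beyond the other 8 mice in 8.1% of genes (516 below, 562 above), but in 6 of the 8 clock output genes. This pair was singled out after its values were seen, so that the count is given with no test, and the members' results are given with and without both mice.

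Between the groups, no clock output gene was called. In edgeR's quasi-likelihood test, with p-values adjusted over all genes tested, 0 of 8 had an adjusted p under 0.05 (range 0.432 to 0.920) against 8 of all genes (0.0601%). At an unadjusted p under 0.05, 3 of 8 passed, Tef higher and Nfil3 and Bhlhe40 lower in HFD+mTAC mice. Of all genes 8.26% passed, 4.54% higher and 3.72% lower. DESeq2 called 0 (3 with an unadjusted p under 0.05) and limma on log2(TPM + 1) called 0 (1 with an unadjusted p under 0.05). The members' fitted differences were wide nonetheless, with a median size of 0.40 on the log2 scale against 0.12 over all genes. Without TT-583 and TT-584 their median size was 0.13, as was that of all genes (0.13), and 1 of 8 (Tef) had an unadjusted p under 0.05 against 5.56% of genes.

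**Figure D1:**
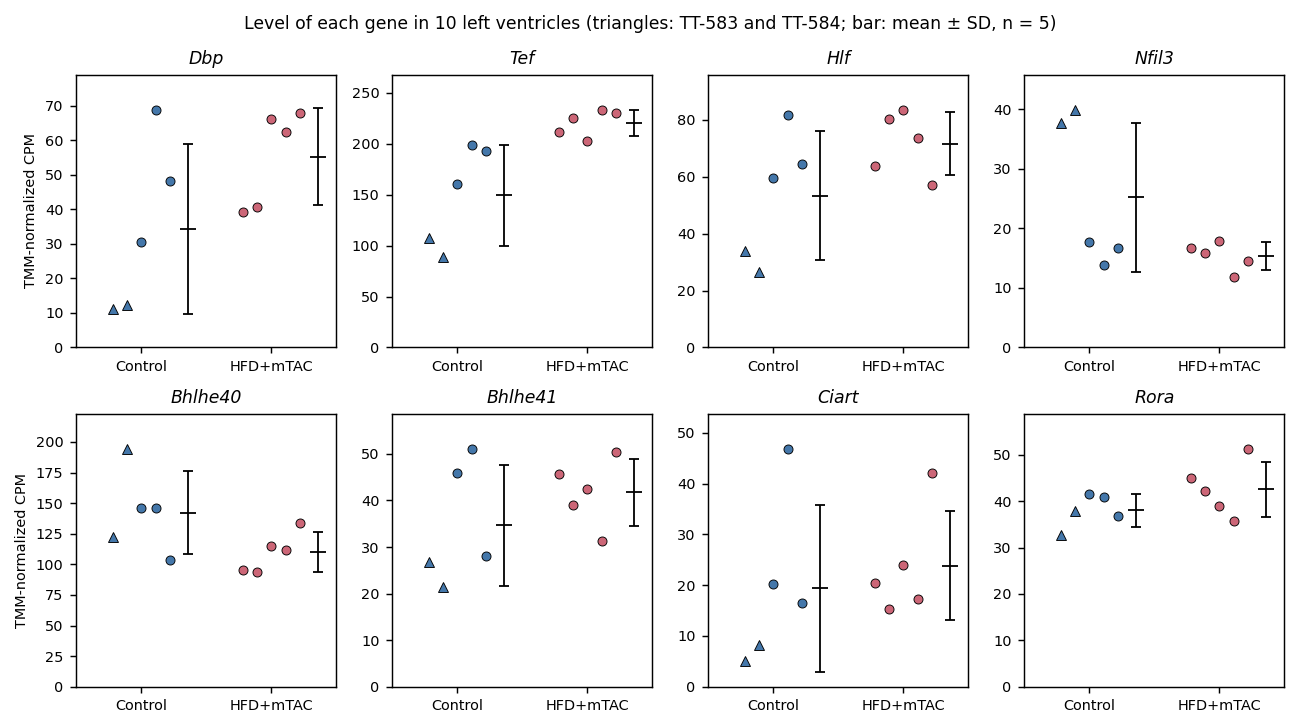
TMM-normalized CPM (linear axis from 0) of the 8 clock output genes in each control and HFD+mTAC mouse, with the mean and SD of each group (n = 5). TT-583 and TT-584 (triangles) are the lowest 2 mice for Dbp, Tef, Hlf, Bhlhe41 and Ciart and the highest 2 for Nfil3.

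The D-box activators had their lowest levels in the same control mice. Dbp, the classical output gene of the clock (chr7:45705088-45710203), was at 11.2, 12.3, 30.7, 68.8 and 48.4 CPM in the controls and at 39.4, 40.8, 66.1, 62.5 and 67.9 CPM in HFD+mTAC mice, each group in the order of its mouse numbers, as in all such lists below. TT-583 and TT-584 were below every other mouse, and all HFD+mTAC mice lay within the control range. The mean was 34.3 ± 24.6 CPM in controls and 55.3 ± 14.1 in HFD+mTAC mice (SD, n = 5), a log2 fold change of 0.70 (SE 0.43, edgeR adjusted p = 0.723). Dbp varied 6.15-fold among the controls and 1.72-fold among HFD+mTAC mice. Without TT-583 and TT-584 its log2 fold change was 0.17 (SE 0.27).

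Tef, a relative of Dbp (chr15:81802421-81826863), was at 107.3, 88.3, 160.7, 198.2 and 192.3 CPM in controls and at 211.1, 225.6, 202.5, 232.9 and 229.8 CPM in HFD+mTAC mice. It was the member whose groups did not overlap in CPM (1 of 8, against 1.96% of all genes), although the highest control mouse (198.2 CPM) was close to the lowest HFD+mTAC mouse (202.5 CPM). The log2 fold change was 0.56 (SE 0.19), with an unadjusted p of 0.0129 and an edgeR adjusted p of 0.432. It was 0.26 (SE 0.10, unadjusted p = 0.0288, adjusted p = 0.837) without TT-583 and TT-584, and the groups still did not overlap. In TPM, which divides by the effective length, the groups of Tef overlapped, as described with the lengths.

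Hlf, the third PAR bZIP factor (chr11:90336536-90390895), was at 33.9, 26.7, 59.5, 81.9 and 64.3 CPM in controls and at 63.7, 80.2, 83.4, 73.7 and 57.1 CPM in HFD+mTAC mice. Of the HFD+mTAC mice, 1 was above all controls and 4 were within their range. The log2 fold change was 0.43 (SE 0.25, edgeR adjusted p = 0.71) and 0.06 (SE 0.15) without TT-583 and TT-584.

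Nfil3, which opposes these activators at the D-box (chr13:52967209-52981073), was at 37.7, 39.8, 17.8, 13.9 and 16.7 CPM in controls and at 16.7, 15.9, 17.8, 11.8 and 14.5 CPM in HFD+mTAC mice. TT-583 and TT-584 were above every other mouse, and the other 3 controls (16.1 ± 2.0 CPM, SD, n = 3) lay among the HFD+mTAC mice (15.3 ± 2.3, SD, n = 5). The log2 fold change was -0.72 (SE 0.28), with an unadjusted p of 0.0243 and an edgeR adjusted p of 0.504. It was -0.07 (SE 0.16, unadjusted p = 0.645) without the pair.

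The E-box repressors did not share one pattern. Bhlhe40 (chr6:108660629-108666925) was at 122.2, 193.9, 145.7, 145.8 and 103.6 CPM in controls and at 95.6, 94.0, 114.7, 112.0 and 134.2 CPM in HFD+mTAC mice. TT-584 was the highest mouse but TT-583 was not set apart, and 2 HFD+mTAC mice were below all controls. Its log2 fold change was -0.37 (SE 0.16, unadjusted p = 0.0337, edgeR adjusted p = 0.543), and it was -0.23 without TT-584 alone and -0.26 (SE 0.15, unadjusted p = 0.116) without both mice.

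Its paralog Bhlhe41 (chr6:145858243-145865558) was at 26.8, 21.4, 45.8, 51.0 and 28.2 CPM in controls and at 45.7, 38.9, 42.5, 31.2 and 50.4 CPM in HFD+mTAC mice, the latter all within the control range. TT-583, TT-584 and TT-587 were the 3 lowest mice. The log2 fold change was 0.27 (SE 0.22, edgeR adjusted p = 0.809), and 0.00 (SE 0.20) without TT-583 and TT-584.

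Ciart was the most variable of the 8 (chr3:95878503-95882251). It was at 5.1, 8.2, 20.3, 46.7 and 16.4 CPM in controls, a 9.10-fold range, and at 20.5, 15.2, 24.0, 17.3 and 42.2 CPM in HFD+mTAC mice. The high mice, TT-586 and TT-592, were 1 of each group. Its biological coefficient of variation in edgeR, the spread between mice beyond counting error, was 0.527, higher than in 95.5% of genes, and that of Dbp was 0.464 (93.3%). The log2 fold change of Ciart was 0.31 (SE 0.49, edgeR adjusted p = 0.920) and became -0.22 (SE 0.38) without TT-583 and TT-584.

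Rora, the activator at the Rev-erb element (chr9:68653786-69388246), was the steadiest, at 32.8, 37.9, 41.5, 40.9 and 36.8 CPM in controls and 44.9, 42.2, 39.0, 35.6 and 51.1 CPM in HFD+mTAC mice. Of the latter, 3 were above all controls and 2 within their range. The log2 fold change was 0.16 (SE 0.11, edgeR adjusted p = 0.757) and 0.10 (SE 0.13) without TT-583 and TT-584. Its coefficient of variation, 0.133, was higher than in 26.3% of genes.

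**Figure D2:**
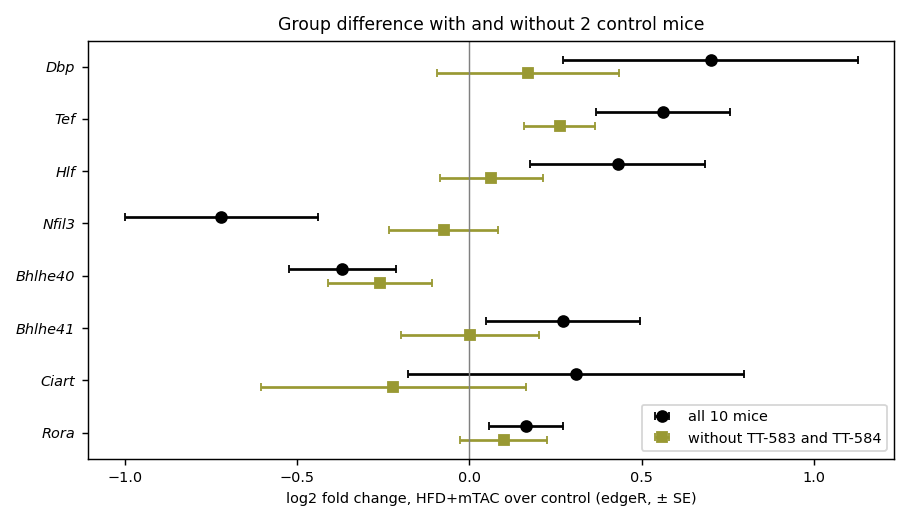
The edgeR log2 fold change (HFD+mTAC over control) of each gene with its SE, from all 10 mice (circles) and without TT-583 and TT-584 (squares). Without the pair, the value of Ciart changes sign (-0.22) and the others keep their direction. They are 0.26 for Tef, -0.26 for Bhlhe40, 0.17 for Dbp, 0.10 for Rora, -0.07 for Nfil3, 0.06 for Hlf and 0.00 for Bhlhe41.

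Per transcript length, the genes were ordered by median TPM over the 10 mice as Tef (19.6), Bhlhe40 (7.69), Ciart (4.61), Dbp (3.72), Bhlhe41 (2.37), Nfil3 (1.12), Hlf (0.952) and Rora (0.434). The order differed between the groups at its top, and in 4 of 5 controls Bhlhe40 was above Tef. The control medians were 9.15 TPM for Bhlhe40 and 5.04 TPM for Tef, whereas in HFD+mTAC mice, all 5 with Tef above Bhlhe40, they were 6.07 and 30.5 TPM. This switch carries the estimated length of Tef, with a median of 3728 bases in controls and 993 in HFD+mTAC mice. In CPM, which is not scaled to length, mean Tef was above mean Bhlhe40 in controls (149.4 and 142.2) and in HFD+mTAC mice (220.4 and 110.1). Over all mice, each pair of neighbours in this order overlapped in its range over the mice. The range was 4.54 to 47.7 TPM for Tef and 4.61 to 15.0 TPM for Bhlhe40. At the low end, it was 0.599 to 1.17 TPM for Hlf and 0.286 to 0.630 TPM for Rora.

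How the members moved together was examined after the group means had been subtracted. Of 28 pairs of members, 1 had an adjusted p of Pearson's r under 0.05, Tef with Nfil3 (Pearson r = -0.96 and Spearman rho = -1 of log2(CPM + 0.5) over 10 mice). For both coefficients the exact permutation p within groups was 6.94e-05, the smallest the 14400 arrangements can give, and the adjusted p was 0.00194. Within each group the order of the mice by Nfil3 was the exact reverse of their order by Tef (10 of 10 pairs of mice among controls and 10 of 10 among HFD+mTAC mice). Without TT-583 and TT-584, the 2 mice farthest from the median of Tef, r was -0.75 (exact permutation p = 0.0375, adjusted p = 0.525) and rho -0.93 (exact permutation p = 0.00139, adjusted p = 0.0389). The relation was seen in CPM alone, and in log2(TPM + 1) r was -0.31 (exact permutation p = 0.765, adjusted p = 0.871).

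**Figure D3:**
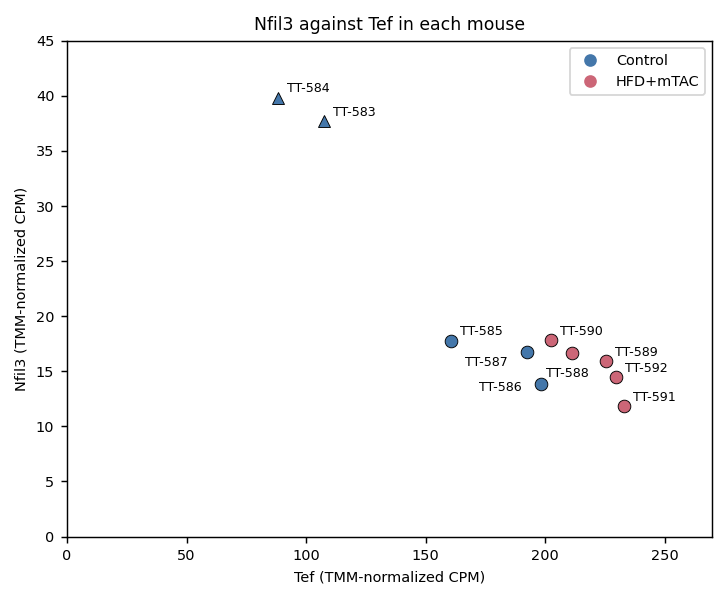
TMM-normalized CPM of Nfil3 against Tef in each mouse (linear axes from 0). TT-583 and TT-584 (triangles) have the highest Nfil3 and lowest Tef, and within each group a mouse with more Tef has less Nfil3.

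Dbp with Tef missed the threshold (r = 0.90, adjusted p = 0.077 by exact permutation over 10 mice). So did Tef with Hlf (r = 0.90, adjusted p = 0.073 by the same test). Without TT-583 and TT-584 these coefficients were 0.60 and 0.20. A pair that did not weaken without them was Bhlhe41 with Rora (r = 0.68 with all mice and 0.77 without), which did not pass either (adjusted p = 0.073 by exact permutation over 10 mice). Bhlhe41 with Ciart (0.82 and 0.75) and Ciart with Rora (0.67 and 0.61) had the same adjusted p and weakened little. Dbp with Nfil3 (-0.91 and -0.53) and Dbp with Ciart (0.88 and 0.65) also had this adjusted p.

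The log2 ratio of summed Dbp, Tef and Hlf to Nfil3, the activators against the repressor of the D-box, was computed in TPM for each mouse. It was 1.16, 1.05, 2.87, 5.11 and 3.21 in controls and 5.41, 5.21, 4.59, 5.13 and 5.37 in HFD+mTAC mice. TT-586 lay among the HFD+mTAC mice and the other 4 controls were below all of them, and the group means differed by 2.46. From CPM the ratio was 1.68 to 4.65 in controls and 4.24 to 4.97 in HFD+mTAC mice, a difference of 1.24. The larger difference in TPM went with the shorter effective length of Tef in HFD+mTAC mice. Without TT-583 and TT-584 the ratio differed by 1.41 in TPM and by 0.29 in CPM.

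Effective length is an average over a gene's transcripts weighted by their estimated abundance and corrected for sequence, GC and position bias, and can exceed the annotated length. For Tef it was 3728, 3133, 4595, 1120 and 5723 bases in controls and 684, 960, 1419, 1597 and 993 bases in HFD+mTAC mice. Control TT-586 lay among the HFD+mTAC mice, and the other 4 controls were above all of them. The log2 difference was -1.62 (SE 0.43, unadjusted p = 0.00398, limma adjusted p = 0.792), and -1.51 (unadjusted p = 0.0278) without TT-583 and TT-584. Tef has 10 annotated transcripts, of which 4 are protein-coding. Its length varied 8.37-fold over the mice, against a median of 1.42-fold over all genes.

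Accordingly, the TPM of Tef did not follow its counts. It was 5.01, 5.04, 5.14, 24.9 and 4.54 TPM in controls and 47.7, 30.5, 19.1, 20.2 and 39.7 TPM in HFD+mTAC mice, with TT-586 alone among controls at the level of the HFD+mTAC mice. In CPM the same mouse (198.2) was next to TT-587 (192.3), whose TPM was the lowest of all. On this scale the log2 fold change of Tef was 2.24 (limma on log2(TPM + 1), adjusted p = 0.381). Bhlhe41 also changed length from mouse to mouse, at 7662, 7755, 1753, 2148 and 8915 bases in controls and 1385, 1607, 9081, 2719 and 2598 bases in HFD+mTAC mice, with long values in both groups. Its length differed by -0.81 between the groups (log2, SE 0.66, limma adjusted p = 0.792). Of the 8 members, 1 (Tef) had an unadjusted p under 0.05 in length, against 4.19% of genes, and 0 lengths of all genes had an adjusted p under 0.05. Nfil3, with 1 annotated transcript, varied 1.08-fold.

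**Figure D4:**
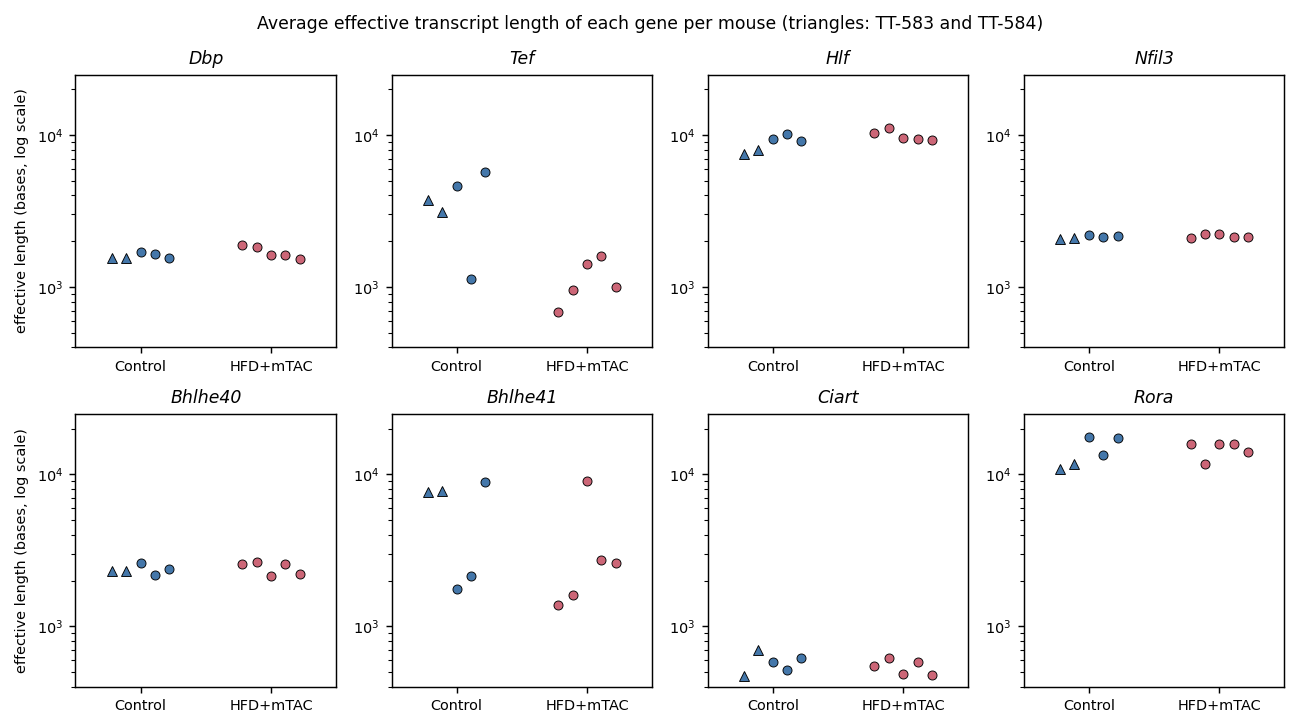
Average effective transcript length (bases, log axis) of each gene in each mouse. Tef lies between 684 and 1597 bases in HFD+mTAC mice and between 3133 and 5723 bases in 4 of 5 controls, and Bhlhe41 spans 1753 to 8915 bases in controls and 1385 to 9081 in HFD+mTAC mice.

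Among the core clock genes, 14 of 16 were tested and 0 were called. Arntl and Clock were not tested, being listed at 0 estimated counts in 3 and 2 mice. Their other values, in control and HFD+mTAC mice alike, were at most 79.8 counts (Arntl) and 397.2 counts (Clock). The fitted fold change was positive for 12 and negative for 2, with a median of 0.11 on the log2 scale against 0.00 over all genes. Per2, a repressor of the loop, was at 14.7, 26.5, 32.0, 42.8 and 48.9 CPM in controls and 42.0 to 74.8 CPM in HFD+mTAC mice (log2 fold change 0.75, SE 0.26, unadjusted p = 0.0144, edgeR adjusted p = 0.443). Npas2, the relative of Clock, was at 8.26, 10.5, 2.64, 2.96 and 4.32 CPM in controls and 1.91 to 3.75 CPM in HFD+mTAC mice (log2 fold change -0.91, SE 0.38, unadjusted p = 0.0309, edgeR adjusted p = 0.530). The gene with the next smallest p was Cry2, a cryptochrome gene (log2 fold change 0.27, SE 0.14, edgeR adjusted p = 0.657).

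TT-583 and TT-584 were also the lowest 2 mice for Per2, Per3, Cry2 and Nr1d2 and the highest 2 for Npas2. Without them the log2 fold change was 0.42 for Per2 (unadjusted p = 0.0488), -0.10 for Npas2 and 0.09 for Cry2. Nr1d1, the other Rev-erb repressor, did not set the pair apart (103.2 and 104.8 CPM, within 80.2 to 194.1 CPM in the other mice). Since Arntl was at 0 in some mice, its log2 ratio to Dbp was taken from TPM + 1. With Arntl at most at 0.195 TPM and Dbp at 1.26 to 7.60 TPM, this ratio mostly restates Dbp and says little about Arntl. It was -1.74 ± 0.79 in controls and -2.43 ± 0.51 in HFD+mTAC mice (SD, n = 5; exact permutation p = 0.135, two-sided, smallest possible 0.00794). The difference of the means was -0.70, and -0.19 without TT-583 and TT-584 (exact permutation p = 0.607).

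**Figure D5:**
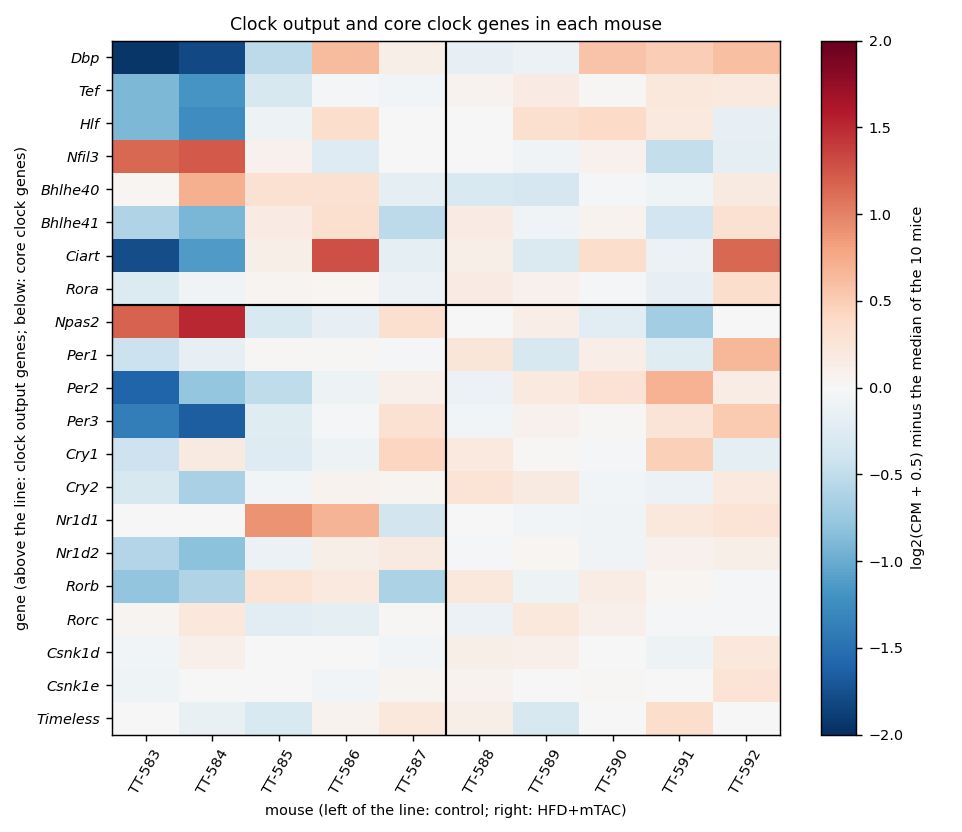
Each gene's log2(CPM + 0.5) in each mouse, minus its median over the 10 mice (blue below, red above; the scale ends at 2), for the clock output genes and 13 of the core clock genes tested. The columns of TT-583 and TT-584 are blue for Dbp, Tef, Hlf, Ciart, Per2, Per3 and Nr1d2 and red for Nfil3 and Npas2.

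Clock-controlled genes further downstream numbered 14, all tested, with 0 called, 9 fitted higher and 5 lower (median log2 fold change 0.16). Wee1, a kinase that delays cell division, was at 12.1 to 27.8 CPM in controls and 25.5 to 33.6 CPM in HFD+mTAC mice (log2 fold change 0.54, SE 0.19, unadjusted p = 0.0137, edgeR adjusted p = 0.442), and its log2 fold change was 0.34 (unadjusted p = 0.0661) without TT-583 and TT-584. Pdk4, the kinase that turns glucose oxidation down, was at 268.3 to 650.7 CPM in controls and 331.0 to 874.8 CPM in HFD+mTAC mice (0.60, SE 0.27, unadjusted p = 0.0457, edgeR adjusted p = 0.597). The value of Pdk4 was 0.92 (unadjusted p = 0.0104) without the pair. Tspan4, a tetraspanin, had the next smallest p (0.44, SE 0.23, edgeR adjusted p = 0.657, and 0.21 without the pair).

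Glucocorticoid-responsive genes were included because the hormone has a daily rhythm of its own. Of 12 genes, all tested, 0 were called, 9 were fitted higher and 3 lower (median log2 fold change 0.21, and 0.40 without TT-583 and TT-584). The 3 with the smallest p were higher in HFD+mTAC mice, and 2 of the 12 did not overlap between the groups, against 1.96% of all genes. Ddit4, an inhibitor of mTORC1, was at 32.9, 40.2, 38.5, 25.3 and 50.6 CPM in controls and 66.0, 78.9, 147.3, 119.3 and 87.0 CPM in HFD+mTAC mice (log2 fold change 1.41, SE 0.22, edgeR adjusted p = 0.051). Zbtb16, a zinc finger transcription factor, was at 20.4 to 30.8 CPM in controls and 35.0 to 82.7 CPM in HFD+mTAC mice (1.00, SE 0.24, edgeR adjusted p = 0.250). Tsc22d3, which encodes the glucocorticoid-induced leucine zipper, had overlapping groups (0.50, SE 0.18, unadjusted p = 0.0179, edgeR adjusted p = 0.467, and 0.52 without the pair). For Ddit4 and Zbtb16 the log2 fold change without the pair was 1.39 and 1.10, so that these differences, unlike those of Dbp, Hlf and Nfil3, did not rest on TT-583 and TT-584.

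The genes whose level followed each member most closely over the 10 mice were taken from 10097 tested genes with a mean of at least 5 CPM, as a description with no test. Group means were not subtracted here, so each r also carries any difference between the groups. All values of a mouse come from 1 library. For Dbp they were Irf2bpl (r = 0.96), the replication helicase subunit Mcm3 (0.95) and the clock gene Per3 (0.94). For Tef they were Per3 (0.97), Ankrd12 (0.96) and the clock gene Nr1d2 (0.95), and for Hlf they were Sp110 (0.95), the DNA ligase Lig1 (0.93) and Rab4a (0.93). Nfil3 was followed by Creld1 (0.94), Kcnj14 (0.92) and 4930453N24Rik (0.92). Without TT-583 and TT-584, r with Dbp was 0.78 for Irf2bpl, 0.76 for Mcm3 and 0.59 for Per3. With Tef it was 0.67 for Per3, 0.78 for Ankrd12 and 0.44 for Nr1d2. With Hlf it was 0.65 for Sp110, 0.75 for Lig1 and 0.10 for Rab4a. With Nfil3 it was 0.87 for Creld1, -0.40 for Kcnj14 and 0.72 for 4930453N24Rik.

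For the remaining members, every companion had an r of at least 0.77 without this pair, a level that some companions above also reached. Bhlhe40 was followed by Gpr133 (r = 0.93, and 0.91 without the pair), Tmem33 (0.91 and 0.88) and Mtmr4 (0.89 and 0.77). Bhlhe41 was followed by Rgma (0.95 and 0.91), Uggt2 (0.95 and 0.93) and the clock-controlled deubiquitinase gene Usp2 (0.91 and 0.88). Ciart was followed by 1810030O07Rik (0.91 and 0.80), Mrpl23 (0.91 and 0.78) and Sp2 (0.88 and 0.89), and Rora by Nub1 (0.95 and 0.94), Fam214b (0.94 and 0.91) and Map2k1 (0.94 and 0.95).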

How the data were processed

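Left ventricular RNA of 5 control and 5 HFD+mTAC mice was compared, with groups taken from the sample titles. The labels do not state separate litters or batches, and p-values measure the spread between these mice. According to the study's methods, stranded mRNA libraries were trimmed with fastp and quantified with salmon (1.6.0, also in the submitters' processing notes) on GENCODE transcripts of GRCm38, with corrections for sequence, GC and position bias, and summed with tximport. The processing notes list a human build, whereas the symbols are those of mouse genes. The labels and the methods differ on read length. The study's own comparison used fewer control mice than the labels list, and which mice is not given in the sources used here.

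The authors deposited estimated counts (expected counts, not normalized, 20.07% of them not whole), TPM values and average effective lengths in bases. Of 29564 symbols, 27862 matched GENCODE M21 of GRCm38, 882 matched as older symbols and 820 did not match. The lowest chi-square per degree of freedom between libraries of a group was 12.9, so that no library was a repeat of another.

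Counts were rounded and tested with edgeR 4.0.16 (TMM, quasi-likelihood test, Benjamini-Hochberg adjustment, threshold 0.05) in R 4.3.3 on 13303 nuclear protein-coding genes with at least 1 count in 9 of 10 mice. CPM are TMM-normalized. Lengths were tested with limma 3.58.1 on log2 values, each mouse centred on its median deviation. Correlations among members used log2(CPM + 0.5) after subtraction of group means, with all 14400 arrangements within groups in place of 100000 random ones. The r of other genes with each member was taken over the 10 mice without this subtraction. The log2 ratio of Arntl to Dbp was taken from TPM + 1, since Arntl was listed at 0 in some mice. The ratio of D-box factors is a score over the members and is given with no p. DESeq2 1.42.0, other scalings, filters, scales and the omission of each mouse were alternatives, and the omission of both TT-583 and TT-584 was added after the data were seen, also together with CPM for the ratio of D-box factors. Scripts were tested on simulated data.

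The members and gene lists were chosen with earlier results of these data known. All 8 members are named. Of each list, genes past the threshold and otherwise the 3 with the smallest p are named, as are the 3 genes most correlated with each member. Other genes were named after their values were seen, and 1 core clock gene is counted but not reported singly here. Estimated counts are not corrected for transcript length, whereas TPM values carry any error in the estimated lengths.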

Additional observations from a re-analysis of the deposited data

Results flagged for a closer look

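Of 32 groups of 5 values examined (the CPM and effective lengths of the 8 members in each group), 1 held a mouse far from the others by Dixon's test, where chance alone gives about 1 in 20. The effective length of Bhlhe41 in HFD+mTAC mouse TT-590 was 9081 bases, with the nearest mouse of its group at 2719 bases. Control mice TT-583, TT-584 and TT-587 had like values of 7662, 7755 and 8915 bases, and in CPM TT-590 lay among its group (42.5 CPM, within 31.2 to 50.4 CPM).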

How the results depend on the processing

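No member and no core clock or clock-controlled gene was called under any alternative run. For the members, adjusted p-values ranged from 0.189 (Tef, DESeq2) to 1. The direction of every member held under every alternative, except that the log2 fold change of Ciart was -0.00066 without HFD+mTAC TT-592 and -0.22 without both TT-583 and TT-584. With 1 mouse left out it ranged from -0.00066 to 0.93, the latter without TT-586. Of all genes, 8 were called, 120 by DESeq2, 1 by limma on log2(TPM + 1), 1 with a length offset, 4 without both TT-583 and TT-584, and 1 to 9 with 1 mouse left out. In the last case 1 to 3 were called without any of TT-584 to TT-590 or TT-592. DESeq2 called 2 glucocorticoid-responsive genes, Ddit4 and Zbtb16, against 0 in edgeR. The count of members without overlap was 0 in TPM as deposited. The log2 ratio of summed Dbp, Tef and Hlf to Nfil3 differed by 1.24 in CPM against 2.46 in TPM, and by 0.29 in CPM without both mice. Pairs of members past the threshold by Pearson's r were 0 in log2(TPM + 1) and 0 without both mice, where the rho of Tef with Nfil3 still passed (adjusted p = 0.0389). Beyond the part of effective length in TPM, the cause of these changes was not tested. No paired analysis was possible because the groups share no replicate numbers. With 5 mice per group and the spread of Dbp and Ciart, a difference of the size fitted lay within 2 SE of 0.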
